A study of Homo sapiens with 15 samples.

Results

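The Yippee-like (YPEL) genes, YPEL1 to YPEL5, were followed across the 15 arrays of a study of the transcription factor FOXL2 in 2 human lines that its authors describe as granulosa cell tumour lines. All probe sets on the array whose only annotated gene symbol was a YPEL name were taken, which gave 11 probe sets for the 5 genes, out of 54613 probe sets and 19775 gene symbols in all. The family was selected on differences in log2 signal between groups of these same arrays, which were already known, so each comparison of YPEL genes below is a description and carries no test of its own. Expression is given as the log2 signal of a probe set, and each gene is represented by its brightest probe set over the 15 arrays.

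There were 5 groups of 3 arrays. KGN cells, an adult granulosa cell tumour line that is heterozygous for the FOXL2 mutation typical of that tumour, were transfected at passage 8 with a GC matched control siRNA or with a FOXL2 stealth siRNA, a single product. COV434 cells, described by the authors as a granulosa cell tumour line, lack the mutation and have almost no FOXL2. They received 1 µg of empty vector, of pFOXL2wt for wildtype FOXL2 or of pFOXL2m for mutant FOXL2 at passage 9. In every group 300000 cells were seeded per well, lipid complexes were taken off after 7 h and RNA was harvested at 24 h. The 3 samples of a group were separate transfections done on 1 occasion, so the spread between them leaves out differences between occasions. All values are averages over a whole well, in which fewer responding cells and a smaller response per cell cannot be told apart.

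YPEL proteins are small and highly conserved zinc-binding proteins, named after the fruit fly protein Yippee. They share the core of their fold with cereblon, the substrate receptor of a ubiquitin ligase, and with the Mis18 proteins of the centromere. YPEL3 is known as a gene induced by p53 that slows growth, and YPEL5 as a part of the CTLH ubiquitin ligase complex; the roles of YPEL1, YPEL2 and YPEL4 are less well known.

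Only some of the family was measurable. A background level was set in each line at the 95th percentile of 171 probe sets for olfactory receptors and keratin-associated proteins, which gave 5.39 in KGN and 5.15 in COV434. In KGN the genes above it were YPEL2, YPEL3 and YPEL5, and in COV434 they were YPEL1, YPEL2 and YPEL5. In each line 4 of the 11 probe sets were above background, and YPEL4 was below it in both lines. One array stood apart in RNA quality: on the first COV434 empty vector array (RR1016) the ACTB probe set at the 3′ end read 7.81 above the one at the 5′ end, against 1.51 to 2.58 on the other 14 arrays, so COV434 differences of the YPEL genes are given with and without it. Differences from empty vector without RR1016 rest on RR1021 and RR1023 as the control. The Pearson r of that pair was 0.991, while the lowest r within any other group was 0.994.

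The FOXL2 probe set fell in KGN from 8.07 ± 0.15 with control siRNA to 6.30 ± 0.05 with FOXL2 siRNA (SD, n = 3), a log2 difference of -1.77 (SE 0.10). This probe set lies in a part of the transcript that the plasmids lack, so the arrays do not check the overexpression. Of the granulosa cell markers, 4 of 9 were above background in KGN (FOXL2, WT1, GATA4 and STAR) and 2 of 9 in COV434 (WT1 and GATA4), while FSHR, INHA and NR5A1 were below it in both lines. Most of these markers thus do not bear out the granulosa name in either line, COV434 least, and the name is the authors' own. None of 3 epithelial markers was above background in either line. Of 3 endothelial markers PECAM1 was above background on the average of each line, while CDH5 and VWF were below it in both lines. In the COV434 empty vector group PECAM1 lay just under the background level, at 5.146 beside 5.151. The leukocyte marker PTPRC was above background in COV434 only, with 7.45 ± 0.50 in the empty vector, 7.10 ± 0.07 in the wildtype and 6.95 ± 0.11 in the mutant group.

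YPEL2 carried the largest differences of the family within a line, and YPEL5 was the member far above background in both. Their promoters are shown for that reason, as the 250 bases before the start of each gene in the RefSeq annotation of GRCh38.p14. The YPEL2 window is chr17:59331405-59331654 and the YPEL5 window chr2:30146757-30147006, both on the plus strand. Capitals mark GC boxes (GGGCGG) and CCAAT boxes on either strand, so that a CCAAT box on the opposite strand reads as its complement.
YPEL2: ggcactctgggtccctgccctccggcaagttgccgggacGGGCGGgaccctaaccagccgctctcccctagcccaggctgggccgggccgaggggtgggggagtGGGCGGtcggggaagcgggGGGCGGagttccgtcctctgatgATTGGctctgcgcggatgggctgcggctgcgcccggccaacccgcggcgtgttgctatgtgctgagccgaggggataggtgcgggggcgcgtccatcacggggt
YPEL5: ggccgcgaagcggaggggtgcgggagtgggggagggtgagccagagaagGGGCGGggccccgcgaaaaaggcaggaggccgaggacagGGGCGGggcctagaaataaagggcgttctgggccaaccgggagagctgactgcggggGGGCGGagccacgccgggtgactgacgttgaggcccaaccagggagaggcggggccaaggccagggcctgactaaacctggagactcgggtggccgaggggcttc
YPEL2 has 3 GC boxes and a CCAAT box 104 bases before its start, whereas YPEL5 has 3 GC boxes and no CCAAT box. A GC box stood in 42.64% of the 35116 promoter windows of this length and a CCAAT box in 32.01%, so neither is rare. YPEL3 also has both motifs and YPEL4 has neither. The forkhead motif GTAAACA, found in 2.979% of windows, was in none of the windows of YPEL2, YPEL3, YPEL4 and YPEL5. A motif match is a description of the sequence only.

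In COV434, the YPEL2 signal was higher with both FOXL2 plasmids. It read 6.19, 5.77 and 5.52 on the 3 empty vector arrays, 6.73, 6.51 and 6.51 with wildtype FOXL2 and 6.91, 6.69 and 7.01 with mutant FOXL2. Every array with a FOXL2 plasmid was above every empty vector array, and the highest empty vector value came from RR1016. The log2 difference from empty vector was 0.76 (SE 0.16, 95% interval 0.39 to 1.12) for wildtype FOXL2, a 1.69-fold higher signal. For mutant FOXL2 it was 1.05 (SE 0.16, 95% interval 0.68 to 1.41), a 2.06-fold higher signal. In size these differences exceeded those of 99.66% of all probe sets for the wildtype and 99.93% for the mutant plasmid.

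**Figure D1:**
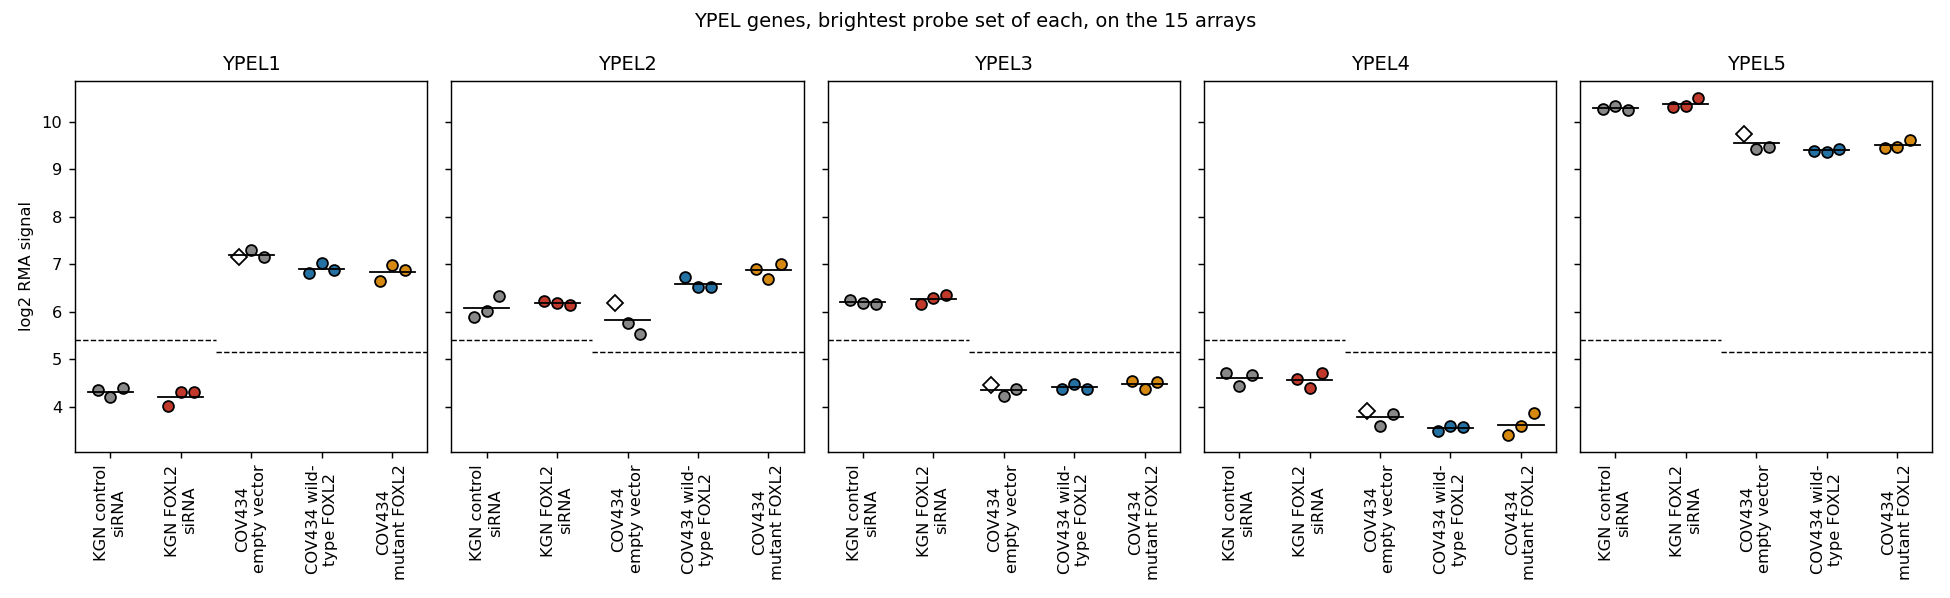
Log2 RMA signal of the brightest probe set of each YPEL gene on the 15 arrays, by group. Points are arrays, the open diamond is empty vector array RR1016, short bars are group means and dashed lines the background level of each line (5.39 in KGN, 5.15 in COV434). YPEL2 is higher on all 6 arrays with a FOXL2 plasmid than on the 3 empty vector arrays, while YPEL4 lies below background throughout.

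Neither YPEL2 difference was called by limma at an adjusted p under 0.05 across all probe sets, where the share called was 0% for the wildtype and 0% for the mutant plasmid. At an unadjusted p under 0.05 limma called 6042 probe sets (11.1%) for wildtype and 7095 (13.0%) for mutant FOXL2, and the YPEL genes among them were YPEL2, higher, and YPEL1, lower, with each plasmid. Groups failed to overlap for 2 of the 5 genes with either plasmid, again YPEL1 and YPEL2, beside 13.4% of all probe sets for the wildtype and 14.5% for the mutant plasmid. Of all 19775 genes by their brightest probe set, 2957 failed to overlap for the wildtype and 3258 for the mutant plasmid. Both comparisons use the same 3 empty vector arrays, so they are not separate pieces of evidence.

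Leaving out RR1016 made the YPEL2 differences larger and narrower. They were then 0.94 (SE 0.12) for wildtype FOXL2, or 1.92-fold, and 1.23 (SE 0.12) for mutant FOXL2, or 2.34-fold. Both were called without that array, where the share of all probe sets called was 2.30% and 2.99%. Without any other COV434 array YPEL2 was called in neither comparison, and over all such omissions its difference ran from 0.61 to 0.94 for wildtype and from 0.89 to 1.23 for mutant FOXL2.

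The mutant and the wildtype group overlapped in YPEL2. The signal was 0.29 higher with mutant FOXL2 (SE 0.16, 95% interval -0.08 to 0.65), and the lowest mutant array (6.69) lay below the highest wildtype array (6.73). No probe set of any gene was called between the plasmids (0%), and 608 (1.11%) passed an unadjusted p under 0.05 in limma. Without RR1016, which enters this contrast only through the estimate of spread, the YPEL2 difference was 0.29 (SE 0.11, 95% interval 0.04 to 0.54). In that fit 0% of probe sets were called and 2.90% passed the unadjusted threshold, YPEL2 among them.

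The other YPEL2 probe sets were dim and bear little on this difference. The probe set 1556420_s_at was below background on the average of each line, with group means of 2.57, 2.89 and 2.75 for empty vector, wildtype and mutant FOXL2. It was 0.32 higher (SE 0.10) with wildtype and 0.18 higher (SE 0.10) with mutant FOXL2, in the direction of the bright probe set and not overlapping the empty vector arrays. Without RR1016 these were 0.30 and 0.17. The probe set 229060_at was also below background and had COV434 group means between 3.17 and 3.20. Its differences from empty vector were -0.02 and -0.03, and 0.03 and 0.02 without RR1016. Averaging the 3 probe sets of YPEL2 gave differences of 0.35 and 0.40. The endothelial marker PECAM1 had means of 5.15 ± 0.10, 5.38 ± 0.23 and 5.50 ± 0.11 in the same 3 groups (SD, n = 3). That is the order of the YPEL2 means. The endothelial markers CDH5 and VWF, both below background, did not follow it. CDH5 was highest with empty vector, with means of 2.86, 2.78 and 2.81. VWF had means of 4.02 with empty vector and 4.12 with wildtype FOXL2, and was lowest with mutant FOXL2. The summed linear signal of the 3 endothelial markers was 56.8 to 60.9 with empty vector, 58.7 to 74.6 with wildtype and 65.4 to 70.4 with mutant FOXL2. Their part in the YPEL2 values was not tested.

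In KGN, silencing FOXL2 left YPEL2 within the spread of its arrays. The signal was 5.89, 6.02 and 6.32 with control siRNA and 6.23, 6.19 and 6.14 with FOXL2 siRNA. The knockdown arrays all lay inside the range of the control arrays, with a log2 difference of 0.11 (SE 0.12, 95% interval -0.15 to 0.38). No YPEL gene was called after the knockdown, where limma called 0.273% of all probe sets (149). No representative YPEL probe set had groups that failed to overlap, beside 13.8% of all probe sets and 3319 of 19775 genes. Among the dim YPEL probe sets 229060_at of YPEL2 alone did so, with means of 3.93 with control siRNA and 3.98 with FOXL2 siRNA.

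The response of YPEL2 to the knockdown in KGN was set against its response to mutant FOXL2 in COV434 in a fit of all 15 arrays. The knockdown difference minus the mutant difference was -0.93 (SE 0.22, 95% interval -1.39 to -0.47). It was not called among all probe sets, of which 0.227% were. Without RR1016 it was -1.11 (SE 0.18) and was called, beside 2.33% of all probe sets. This contrast sets 2 lines, 2 reagents and opposite manipulations of FOXL2 against each other, which cannot be told apart here.

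**Figure D2:**
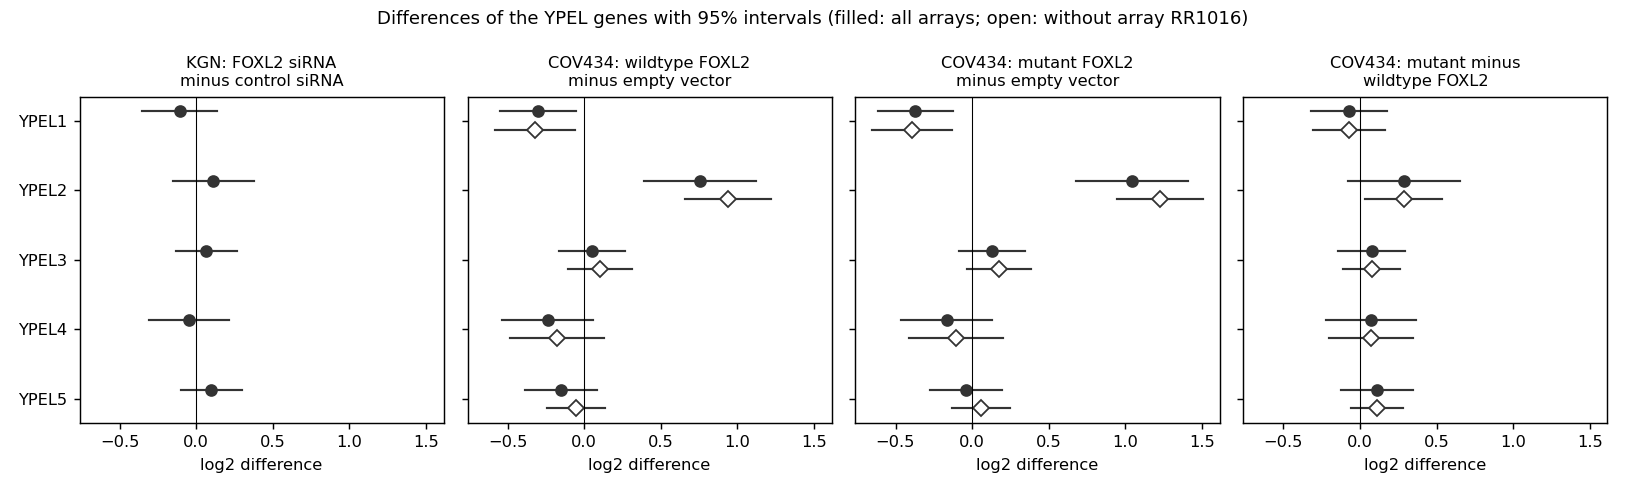
Log2 differences of the brightest probe set of each YPEL gene in 4 comparisons, with 95% intervals from limma. Filled circles use all arrays and open diamonds leave out empty vector array RR1016, which has no part in the KGN comparison. YPEL2 is higher with both plasmids (0.76 and 1.05), YPEL1 is lower (-0.30 and -0.37), and the intervals of YPEL3, YPEL4 and YPEL5 all include 0.

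YPEL1 was lower in COV434 with each FOXL2 plasmid, by a smaller amount. Its bright probe set read 7.16, 7.30 and 7.15 with empty vector, 6.82, 7.02 and 6.88 with wildtype and 6.65, 6.98 and 6.88 with mutant FOXL2. All empty vector arrays were above all arrays with a FOXL2 plasmid, and RR1016 was not apart from the other two. The log2 difference was -0.30 (SE 0.11, 95% interval -0.55 to -0.05) for wildtype and -0.37 (SE 0.11, 95% interval -0.62 to -0.12) for mutant FOXL2. Neither was called with all arrays or without RR1016, where the differences were -0.32 and -0.39.

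The other probe sets of YPEL1 were dim and differed in direction. On 228296_at, whose COV434 mean was below background, the differences were -0.08 (SE 0.16) for both plasmids, and -0.05 and -0.04 without RR1016. On 228788_at, also below background, they were 0.29 (SE 0.18) and 0.32 (SE 0.18), and without RR1016 they shrank to 0.07 and 0.10. The average of the 3 probe sets was -0.03 for wildtype and -0.04 for mutant FOXL2, so the lower YPEL1 signal rests on a single probe set. Between the plasmids YPEL1 differed by -0.07 (SE 0.11). PTPRC moved the same way as YPEL1 across the COV434 groups, though its highest value of 8.02 stood well apart from the others of its group and the other leukocyte marker measured, CD3E, was below background with means of 4.47, 4.47 and 4.58. Their summed linear signal was 157 to 282 with empty vector, 153 to 163 with wildtype and 143 to 157 with mutant FOXL2. Their part in the YPEL1 values was not tested.

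After mean values of each line were subtracted, YPEL1 and YPEL2 ran opposite to each other over the 15 arrays (Pearson r = -0.73). Without RR1016 the value was -0.72 over 14 arrays. YPEL1 was below background in KGN, whose arrays enter both values. The arrays share their groups, so the correlation is another view of the differences above. The other pairs of YPEL genes lay between -0.34 and 0.58.

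YPEL5, the subunit of the CTLH complex, had small differences under all treatments. In KGN it read 10.27, 10.33 and 10.26 with control siRNA and 10.31, 10.34 and 10.51 with FOXL2 siRNA, a difference of 0.10 (SE 0.09, 95% interval -0.10 to 0.30). In COV434 it read 9.75, 9.43 and 9.48 with empty vector, 9.40, 9.37 and 9.44 with wildtype and 9.45, 9.47 and 9.61 with mutant FOXL2. The differences from empty vector were -0.15 (SE 0.11, 95% interval -0.39 to 0.09) and -0.04 (SE 0.11, 95% interval -0.28 to 0.20), and RR1016 was again the highest of its group. Without it they were -0.05 and 0.06.

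Mutant and wildtype FOXL2 arrays failed to overlap for YPEL5, the one representative YPEL probe set of which this was so. The same held for 8.03% of all probe sets and 1808 of 19775 genes. For YPEL5 all mutant arrays were higher, by 0.11 (SE 0.11, 95% interval -0.13 to 0.35), and this was not called. The second YPEL5 probe set, 222408_s_at, gave 0.12 (SE 0.08) for the same contrast, again with no overlap. Its differences from empty vector were -0.14 (SE 0.08) for wildtype and -0.02 (SE 0.08) for mutant FOXL2, and -0.13 and -0.01 without RR1016. The intervals of YPEL5 leave room for small changes in either direction.

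All 10 listed CTLH genes were measured. None was called after the FOXL2 knockdown, where the median difference was -0.13 beside 0.01 over all genes. The lowest was RMND5A, a RING subunit of the ligase, with 7.37 ± 0.16 in control and 6.69 ± 0.11 in knockdown cells (SD, n = 3). Its difference of -0.67 (SE 0.11, limma adjusted p = 0.0530) missed the threshold narrowly. RANBP9, the scaffold of the complex, differed by -0.38 (SE 0.10, limma adjusted p = 0.361). These were the 2 CTLH genes at an unadjusted p under 0.05, which 4096 of all probe sets (7.50%) passed. The genes ARMC8 (-0.17), GID8 (-0.19), GID4 (-0.15), MKLN1 (-0.12) and RMND5B (-0.03) also had negative values, and positive ones were seen for WDR26 (0.14), MAEA (0.07) and RANBP10 (0.03).

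With FOXL2 plasmids in COV434, the CTLH genes had a median difference of -0.04 in both comparisons and none was called with all arrays. GID4, which recognises substrates, was 0.41 higher (SE 0.14) with wildtype and 0.29 higher (SE 0.14) with mutant FOXL2. RANBP9 was 0.28 and 0.25 higher (SE 0.16 each). Without RR1016, limma called RANBP9 in both comparisons, at 0.48 (adjusted p = 0.0455) and 0.45 (adjusted p = 0.0481), and GID4 with wildtype FOXL2 at 0.56 (adjusted p = 0.0360), whereas GID4 with mutant FOXL2 stayed just outside at 0.45 (adjusted p = 0.0515). Without that array the share of all probe sets called was 2.30% for wildtype and 2.99% for mutant FOXL2. RMND5B went the other way with wildtype FOXL2, at -0.23 (SE 0.08, limma adjusted p = 0.126). YPEL5 itself differed by -0.05 and 0.06 on the same arrays.

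**Figure D3:**
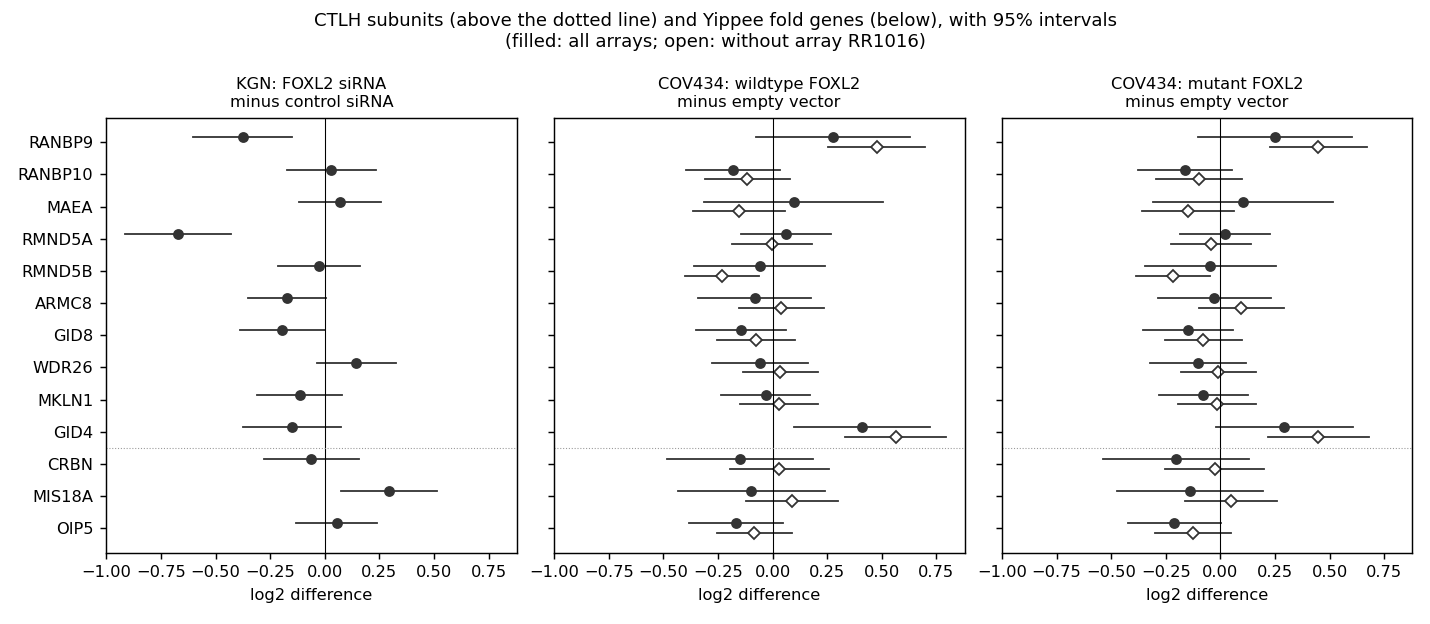
Log2 differences with 95% intervals of the 10 CTLH genes and, under the dotted line, of 3 genes whose proteins share the Yippee type of fold, in 3 comparisons. Filled circles use all arrays and open diamonds leave out empty vector array RR1016. RMND5A (-0.67) and RANBP9 (-0.38) are lowest after the knockdown, and RANBP9 and GID4 are highest with either plasmid.

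The genes that share the fold had small differences within a line. CRBN, which encodes cereblon, MIS18A and OIP5, which encode subunits of the Mis18 complex, had no member called after the knockdown or with either plasmid, with or without RR1016. After the knockdown MIS18A was 0.29 higher (SE 0.10, limma adjusted p = 0.511), CRBN differed by -0.06 and OIP5 by 0.05. With the plasmids all 3 had negative differences, between -0.17 and -0.10 for wildtype and between -0.21 and -0.14 for mutant FOXL2. That shared sign rests on RR1016. Without it CRBN was 0.03, MIS18A 0.09 and OIP5 -0.08 with wildtype FOXL2, and CRBN was -0.03, MIS18A 0.05 and OIP5 -0.13 with mutant FOXL2.

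YPEL3 was not called under any treatment. In KGN it read 6.25, 6.18 and 6.17 with control siRNA and 6.15, 6.29 and 6.36 with FOXL2 siRNA, and the groups overlapped, with a difference of 0.07 (SE 0.09, 95% interval -0.13 to 0.26). In COV434 the 9 values lay between 4.23 and 4.54, below background, with differences from empty vector of 0.05 (SE 0.10) for wildtype and 0.13 (SE 0.10) for mutant FOXL2. Without RR1016 they were 0.10 (SE 0.09) and 0.18 (SE 0.09, 95% interval -0.03 to 0.39). The second YPEL3 probe set, 232077_s_at, was below background in both lines. After the knockdown it was 0.25 higher (SE 0.14, 95% interval -0.06 to 0.57), the largest difference of the 11 YPEL probe sets in that comparison, with groups that overlapped. With the plasmids it differed by -0.03 and -0.01, and without RR1016 by 0.07 and 0.09.

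Of the 14 listed p53 target genes, the pathway from which YPEL3 is known, 11 were measured by a probe set with a single symbol. After the FOXL2 knockdown TP53INP1, a stress response gene, rose by 1.11 (SE 0.09, limma adjusted p = 0.0022), from 6.89 ± 0.12 to 8.01 ± 0.07 (SD, n = 3). It was the one gene of the list called, beside 0.273% of all probe sets. The median of the 11 genes was -0.07 beside 0.01 over all genes. The other values ran from -0.21 for ZMAT3 to 0.14 for PHLDA3, with CDKN1A, the cell cycle inhibitor p21, at -0.07. YPEL3 differed by 0.07 in the same cells.

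In COV434 none of the p53 targets was called with all arrays. The median was 0.27 with wildtype and 0.09 with mutant FOXL2, beside -0.02 and -0.01 over all genes, and the wildtype median was 0.06 without RR1016. PHLDA3 was 0.40 higher with wildtype FOXL2 (SE 0.33), the largest value of the list in that comparison, and -0.11 without RR1016. TP53INP1 was 0.30 higher with wildtype and 0.27 higher with mutant FOXL2 (SE 0.11 each). CDKN1A was 0.39 higher with wildtype FOXL2 (SE 0.12, limma adjusted p = 0.335), and 0.26 higher with mutant than with wildtype FOXL2 (SE 0.12), not called. Against empty vector CDKN1A was 0.65 higher with mutant FOXL2 (SE 0.12, limma adjusted p = 0.128) and, without RR1016, 0.51 higher (SE 0.08, limma adjusted p = 0.0279), when it was called. In that fit 2.99% of all probe sets were called.

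YPEL4, with 1 probe set, was below background in both lines. Its values lay between 4.38 and 4.71 in KGN and between 3.40 and 3.91 in COV434. The differences were -0.05 (SE 0.12) after the knockdown, -0.24 (SE 0.13) with wildtype and -0.17 (SE 0.13) with mutant FOXL2. Without RR1016 the last 2 were -0.18 and -0.10, and at signals this low they say little about the transcript.

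The control cells of both lines differed in most of the family. In the deposited values KGN was lower than COV434 in YPEL1, by 2.89 (SE 0.12), from 7.20 ± 0.08 in COV434 to 4.31 ± 0.10 in KGN, where it was below background (SD, n = 3). KGN was higher in YPEL3 by 1.85 (SE 0.12), in YPEL5 by 0.74 (SE 0.13) and in YPEL4 by 0.82 (SE 0.14), the last between signals that were both below background. YPEL2 was 0.25 higher (SE 0.20) and was not called. The 4 genes called stand beside 51.8% of all probe sets called and 62.0% that failed to overlap. Of all 19775 genes by their brightest probe set, 7858 were called higher and 3326 lower in KGN, and 13207 failed to overlap. A difference between the lines is therefore common in these data.

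The values of each line seem to come from a normalisation of its own, and the median of all probe sets was 0.27 higher in KGN. After the 6 control arrays were quantile normalised together, that median was -0.07 and the share of calls higher in KGN went from 74.7% to 43.1%. YPEL1 was then -3.29, YPEL3 1.40 and YPEL5 0.40, all still called. YPEL4 was 0.35, still higher in KGN but no longer called. YPEL2 turned to -0.18, not called, so its direction depends on the scaling. Without RR1016, YPEL2 was called at 0.43 (SE 0.16) in the deposited values, where 57.7% of probe sets were called. When each array was centred on its own median, YPEL5 also lost its call, at 0.24.

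**Figure D4:**
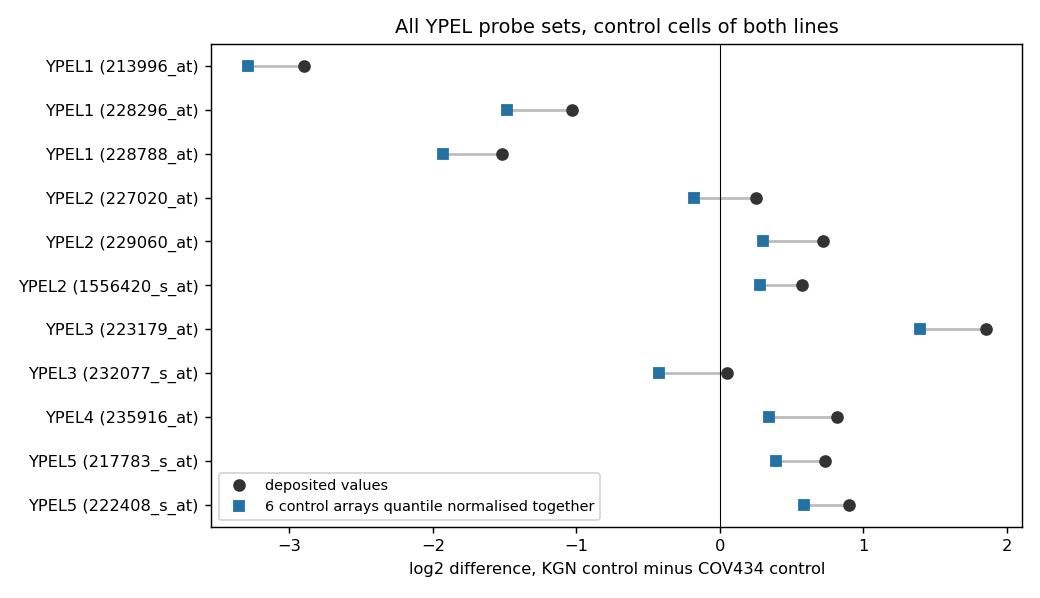
Log2 difference between the control cells of both lines, KGN minus COV434, for all 11 YPEL probe sets. Circles show the deposited values, squares the 6 control arrays after joint quantile normalisation. The 3 YPEL1 probe sets stay far below 0 and the bright YPEL3 and the YPEL5 probe sets above it, whereas 227020_at of YPEL2 and 232077_s_at of YPEL3 change sign.

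The probe sets of a gene bore out these differences to unequal extents. The other YPEL1 probe sets were also lower in KGN, by -1.03 and -1.52, and remained called after quantile normalisation, at -1.48 and -1.93. The dim YPEL2 probe sets were 0.72 and 0.57 higher in KGN and called, but 0.30 and 0.28 higher and not called after quantile normalisation. The second YPEL5 probe set was 0.90 higher, or 0.59 after quantile normalisation. The second YPEL3 probe set was at 0.05 and then -0.43, so the higher YPEL3 signal of KGN rests on 1 probe set. Passage, reagent and line differ together between these cells and cannot be told apart.

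Related genes differed between the lines in both directions in the deposited values, and some of these calls depended on the scaling. Of the CTLH genes, RANBP10 (-0.87), RMND5A (-0.80), GID8 (-0.72) and RMND5B (-0.57) were called lower in KGN, and were also called lower after quantile normalisation and after centring each array on its median. RANBP9 (0.67, limma adjusted p = 0.0195) and MKLN1 (0.58) were called higher, but were 0.32 and 0.29 and not called after quantile normalisation, and 0.17 and 0.08 after centring. Quantile normalisation instead called 0 CTLH genes higher and 7 lower in KGN. The share of all probe sets called on that scale is not given here, so these counts have no share to stand beside. Calls between the lines were common, with 51.8% of all probe sets called in the deposited values. After quantile normalisation 43.1% of all called probe sets were higher in KGN and the rest lower.

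Of the genes that share the fold, OIP5 (-1.76) and MIS18A (-1.12) were called lower in KGN under all 3 scalings, and CRBN (-0.32) only after rescaling. Of the p53 targets, FAS (4.17) and CDKN1A (1.78) were called higher and TP53INP1 (-1.61), MDM2 (-1.29), XPC (-0.62) and SESN1 (-0.43) lower, again under all 3 scalings. PHLDA3 (1.38) was called higher in the deposited values and after quantile normalisation (1.06), but not after centring (0.88). The list medians were -0.27 for CTLH, -1.12 for the fold and 0.26 for p53 targets, beside 0.26 over all genes. After quantile normalisation they were -0.59, -1.43 and -0.09, beside -0.09 over all genes.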

How the data were processed

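RNA from 15 wells was run on Affymetrix U133 Plus 2 arrays. The deposited log2 signals were computed by the authors with RMA in R, background correction included, after checks with AffyQCReport; tool versions are not given in the sources used here. All computations started from these log2 values. Of 54675 probe sets, 62 controls of the array were left out. A single symbol was held by 41091 probe sets, several by 1801 and none by 11721. Groups were compared with limma 3.58.1 (lmFit and eBayes, R 4.3.3), two-sided, with Benjamini-Hochberg adjustment over all 54613 probe sets and a threshold of 0.05. Fits used 6 arrays for KGN, 9 for COV434, 6 for the control cells of both lines and 15 for the difference of effects. The code was tested on simulated data. All YPEL probe sets are reported. Of the lists, all CTLH and fold genes are named, and otherwise genes called in a comparison or with the largest difference in it. Members and lists were chosen with earlier results of these data known. Alternatives changed the scaling, filter, variance model, probe set summary and arrays used. Promoter windows come from RefSeq (GRCh38.p14), which matched YPEL2 to YPEL5. The number of arrays limits the precision.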

Additional observations from a re-analysis of the deposited data

How the results depend on the processing

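No paired analysis was possible because the labels give no replicate numbers. Under the other settings that kept all arrays, 183 log2 differences of YPEL genes stayed within the spread between arrays and 22 moved by more. The background filter, the intensity trend and the choice of groups in the fit cannot change a log2 difference, so those values stayed by construction. Most that moved came from averaging all probe sets of a gene or from rescaling the lines. Of the values called at the main settings 0 changed sign. Sign changes of values not called, such as YPEL2 between the lines, were not counted. With 1 array left out, 270 values of YPEL genes stayed within that spread. In every fit but that of all 15 arrays, leaving out 1 of 3 arrays cannot move a difference by more than that spread. The count therefore says little about stability, and whether YPEL2 was called did depend on RR1016. After the FOXL2 knockdown, the 149 called probe sets became 270 among probe sets above background and 307 with an intensity trend. A joint fit of all 15 arrays called 60 probe sets for wildtype and 261 for mutant FOXL2, and 1 YPEL gene, YPEL2, for mutant FOXL2. Between the lines, 15339 probe sets were called above background in place of 28283, and 2 YPEL genes, YPEL1 and YPEL3, in place of 4 when each array was centred on its median. The number of all probe sets called after centring is not given here. For the knockdown effect minus the mutant effect, 248 in place of 124 probe sets were called above background, and array weights called 1 YPEL gene, YPEL2, at -1.16. The number of all probe sets called with array weights is likewise not given, so that call has no share to stand beside. Leaving out 1 array gave 46 to 120 called probe sets for the knockdown and 0 to 0 YPEL genes. The count was lowest without control array 3, at 46, and was 47, 55 and 55 without knockdown arrays 1, 2 and 3 and 62 without control array 1. For wildtype FOXL2 it gave 0 to 1257 probe sets and 0 to 1 YPEL genes, for mutant FOXL2 0 to 1633 and 0 to 1, and between the plasmids 0 to 0 and 0 to 0; each upper value came from leaving out RR1016. Between the lines the ranges were 22194 to 31521 and 4 to 5 YPEL genes. For the difference of effects they were 28 to 1275 and 0 to 1, with 468 probe sets without empty vector array 3. With 3 arrays a group, YPEL signals below background, which include all of YPEL4, limit what can be said of these genes.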

Other observations

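The genes next to the YPEL genes on their chromosomes were read from the RefSeq gene table, as the nearest gene with a probe set of its own on either side. After the FOXL2 knockdown LBH, a transcription cofactor gene next to YPEL5, fell by 0.71 (SE 0.08, limma adjusted p = 0.0114), from 10.66 ± 0.04 to 9.95 ± 0.07 (SD, n = 3), while YPEL5 differed by 0.10. LBH was the one neighbour of 10 called in that comparison, beside 0.273% of all probe sets. The neighbours of YPEL2, GDPD1 and DHX40, differed by 0.04 (SE 0.24) and 0.20 (SE 0.13) with wildtype FOXL2 and by -0.18 and 0.12 with mutant FOXL2. Without RR1016 they were 0.39 (limma adjusted p = 0.065) and 0.35 (limma adjusted p = 0.0912) with wildtype FOXL2 and 0.17 and 0.27 with mutant FOXL2, so that the sign of GDPD1 with mutant FOXL2 turned. None of the 10 neighbours was called with either plasmid, with or without RR1016. Between the lines, in the deposited values, LBH (5.38), SERPING1 (1.37) and TBX6 (1.00) were called higher in KGN and GDPD1 (-2.49) and CLP1 (-0.75) lower, and the same calls were made after quantile normalisation and after centring each array on its median. SERPING1 was below background in both lines, TBX6 in COV434 and GDPD1 in KGN. In the deposited values 51.8% of all probe sets were called, so such calls are common. PPM1F (0.55) and DHX40 (0.44) were called higher in the deposited values only. After quantile normalisation they were 0.26 and 0.15, and after centring 0.06 and -0.05.

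The genes whose signal ran most like that of a YPEL gene were ranked by Pearson r over the 15 arrays, after the mean of each line was subtracted, among genes above background in the same lines. For YPEL2 they were AJUBA (r = 0.93), PARD6G (0.91) and CHST2 (0.88) out of 10098 genes. Without RR1016 they were PARD6G, PAQR8 and AJUBA, at 0.94 each over 14 arrays. For YPEL1 they were GTPBP2, PARP2 and PDCD2L (0.87 each), and without RR1016 ZNF18 (0.95), DHX35 (0.93) and TMLHE (0.90). For YPEL5 they were PANX1 (0.94), LINC03011 (0.92) and MRPL52 (0.92), and without RR1016 PIP4P1 (0.92), REEP4 (0.91) and GGA1 (0.91). For YPEL3 they were H2BC12 (0.82), THTPA (0.79) and GPRC5A (0.78), and without RR1016 RTN2 (0.84), CYFIP2 (0.83) and H2BC12 (0.81). YPEL3 was below background in COV434 and YPEL1 in KGN. The arrays of those lines entered r all the same, so these values partly reflect signals near the floor. For YPEL2 AJUBA and PARD6G and for YPEL3 H2BC12 were among the 3 in both rankings, whereas for YPEL1 and YPEL5 no gene was. The arrays share groups and lines, so these values are descriptions with no test.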
